A study of Mus musculus with 9 samples.

Results

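The 9 genes described here are the 4 kinases that phosphorylate translation initiation factor eIF2α, their double-stranded RNA binding partners, the RNA editing enzyme ADAR and the regulatory subunits of the eIF2α phosphatase. They were chosen as a list of gene symbols, and all 9 were found among the 46603 gene identifiers counted in every library. All 9 also passed the filter on low counts that left 14176 genes for testing. RNA sequencing was done on β-actin knockout mouse embryonic fibroblasts of the BALB/c strain, derived from embryos of 10.5 days, 6 h after lipid transfection. One group received poly(I:C), which mimics viral double-stranded RNA, and another poly(dA:dT), which mimics viral double-stranded DNA, each at 10 µg/ml. The mock group received the lipid reagent in Opti-MEM without nucleic acid. Every group carries the Actb knockout, wild-type fibroblasts were not analysed here, and the labels say neither how many clones the cells represent nor whether the 3 libraries of a group came from separate cultures.

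Phosphorylation of eIF2α lowers translation initiation on most messages while a few, among them that of the transcription factor ATF4, are translated more, which is known as the integrated stress response. PKR (Eif2ak2) is the kinase that double-stranded RNA activates and is itself an interferon-induced gene, whereas HRI (Eif2ak1), PERK (Eif2ak3) and GCN2 (Eif2ak4) respond to haem shortage or mitochondrial stress, to unfolded protein in the endoplasmic reticulum and to amino acid shortage. ADAR converts adenosine to inosine in double-stranded RNA and thereby limits activation of PKR and of other RNA sensors, PACT (Prkra) activates PKR, TRBP (Tarbp2) binds and restrains it, and GADD34 (Ppp1r15a) and CReP (Ppp1r15b) bring protein phosphatase 1 to eIF2α.

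Levels are given in CPM, counts relative to the TMM-scaled library size, and a gene is called where the adjusted p of edgeR's quasi-likelihood test, over all genes tested, is below 0.05. Assigned counts per library summed to between 16082772 and 22382837 after poly(I:C), between 20738109 and 23185293 after poly(dA:dT) and between 19826550 and 29219797 in mock. Single members held between 366 and 7555 counts in a library, so none was near the detection limit. Actb, the targeted gene, stood at 32.4 ± 1.34 CPM after poly(I:C), 30.6 ± 1.29 CPM after poly(dA:dT) and 33.3 ± 1.29 CPM in mock (SD, n = 3 each), and the labels do not give the deleted stretch. All 8 fibroblast markers were detected, with summed levels of 6460 to 6762 CPM after poly(I:C), 7259 to 7381 CPM after poly(dA:dT) and 7524 to 7688 CPM in mock. Summed levels of 5 endothelial markers were 5.58 to 6.84 CPM after poly(I:C), 3.7 to 4.88 CPM after poly(dA:dT) and 1.95 to 2.62 CPM in mock, and 6 macrophage markers reached at most 4.03 CPM in any library with Ptprc at 0 in all. Epithelial markers summed to 2.84 to 3.2 CPM after poly(I:C), 1.61 to 2.25 CPM after poly(dA:dT) and 1.54 to 2.0 CPM in mock, and neural markers (Olig2 at 0) to at most 1.02 CPM. Skeletal muscle markers summed to 9.57 to 12 CPM after poly(I:C), 15.4 to 15.7 CPM after poly(dA:dT) and 13.5 to 17.8 CPM in mock, with Myod1 and Ckm at 0. The part of these markers in the results below was not tested, and in such bulk samples fewer cells of a type cannot be told apart from less RNA per cell.

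After poly(I:C), 4 of the 9 members rose against mock (Ppp1r15a, Adar, Eif2ak2 and Ppp1r15b), where 39.8% of all genes tested were called higher, and the other 5 fell, where 36.3% were called lower. In either direction 76.1% of genes were called in that comparison. The CPM values of all 9 members did not overlap between the groups, against 76.8% of all genes. After poly(dA:dT), 3 members rose (Adar, Ppp1r15a and Ppp1r15b) against a background of 26.6% of genes, Eif2ak3 alone fell against 26.2%, and 5 members were not called, where 52.8% of genes were called in either direction. Values of 4 members did not overlap, against 57.3% of genes. Between poly(I:C) and poly(dA:dT), 4 members were higher after poly(I:C) and 4 lower, against backgrounds of 31.3 and 32.1%, or 63.4% in either direction. All 9 did not overlap there, against 66.1%. The members' median log2 fold change was -0.16 after poly(I:C) and 0.0 after poly(dA:dT), both against mock, where the medians of all genes were 0.04 and 0.01. The counts of members called are thus to be read against high backgrounds, and both comparisons with mock share the same 3 mock libraries.

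**Figure D1:**
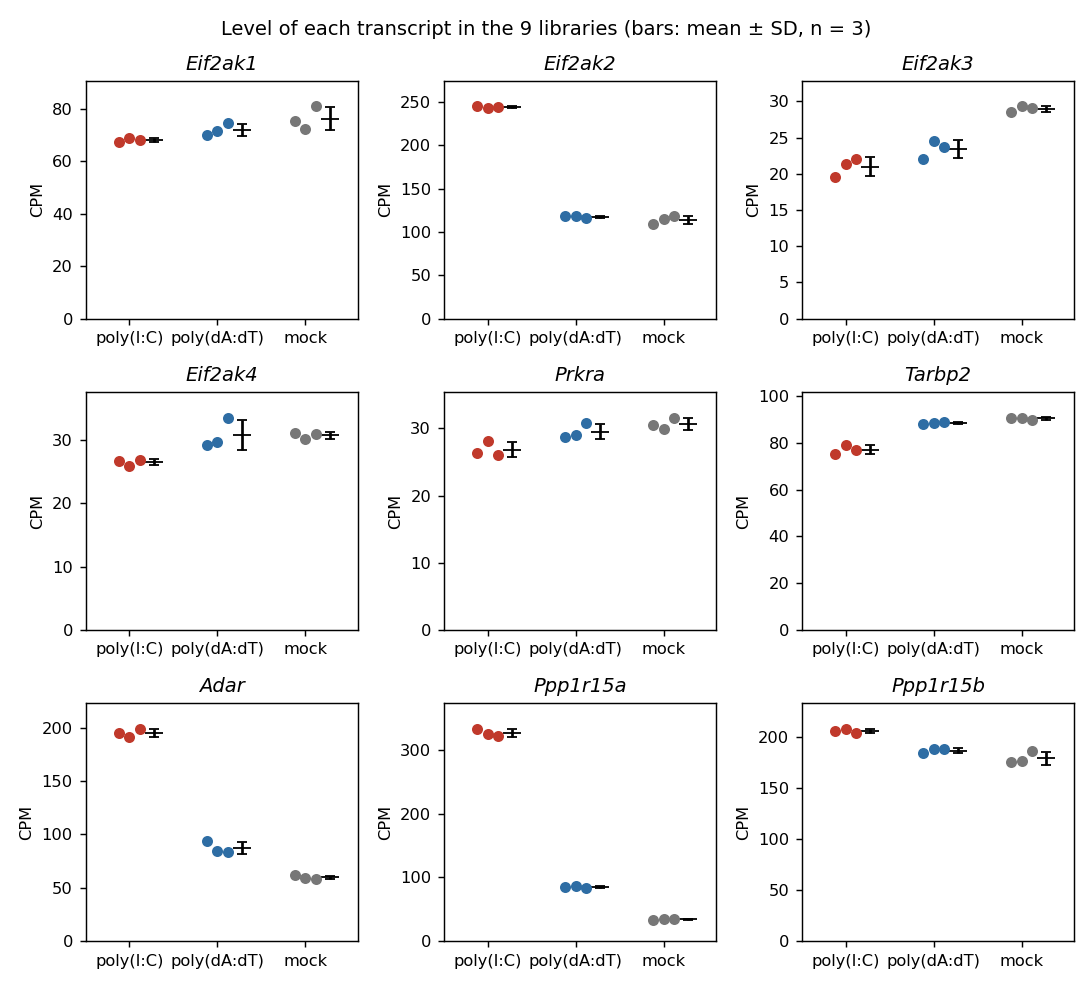
Levels of the 9 transcripts in CPM (vertical axes, each from 0) in the 3 libraries of each group (points; bars, mean ± SD, n = 3). Eif2ak2 stood near 244 CPM after poly(I:C) with poly(dA:dT) and mock together near 117 and 114 CPM, whereas Adar and Ppp1r15a formed 3 separate steps.

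Promoter sequences are shown for the members with the largest changes, since the 3 differ in which elements known from interferon-induced and stress-induced genes they hold. In the windows from 250 bases before to 50 bases after RefSeq start sites (GRCm38.p6), both strands were searched for the core of the interferon-stimulated response element (ISRE, GAAANNGAAA), a relaxed form of it (GAAANNGAA, which every core match also contains), the cyclic AMP response element (CRE, TGACGTCA) and the ATF4 part of the CHOP-ATF4 element (TGATGNAA). Of 32851 such windows, 3.44% held the ISRE core, 8.56% the relaxed form, 1.79% the CRE and 3.97% the ATF4 part. The table held 11 windows for 8 members, and Ppp1r15b had no entry. Matches occurred in 1 window each of Eif2ak2, Adar and Ppp1r15a, and in no window of Eif2ak1, Eif2ak3, Eif2ak4, Prkra or Tarbp2. The sequences are given 5′ to 3′ on the gene's strand, with matches in capitals.
Eif2ak2, chr17:78882523-78882822, minus strand: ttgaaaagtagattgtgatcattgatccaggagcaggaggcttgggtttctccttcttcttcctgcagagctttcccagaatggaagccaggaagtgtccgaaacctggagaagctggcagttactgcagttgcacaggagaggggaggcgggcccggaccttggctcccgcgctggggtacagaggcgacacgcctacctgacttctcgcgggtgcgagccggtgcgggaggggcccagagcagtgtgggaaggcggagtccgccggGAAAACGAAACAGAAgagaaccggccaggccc
Adar, the internal annotated start, chr3:89730468-89730767, plus strand: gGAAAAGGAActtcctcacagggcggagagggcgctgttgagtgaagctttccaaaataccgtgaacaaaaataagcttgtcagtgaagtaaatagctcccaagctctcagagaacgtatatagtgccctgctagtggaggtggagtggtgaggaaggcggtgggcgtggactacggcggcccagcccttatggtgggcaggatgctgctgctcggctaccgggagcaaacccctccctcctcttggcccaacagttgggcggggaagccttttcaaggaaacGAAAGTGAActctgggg
Ppp1r15a, chr7:45526219-45526518, minus strand: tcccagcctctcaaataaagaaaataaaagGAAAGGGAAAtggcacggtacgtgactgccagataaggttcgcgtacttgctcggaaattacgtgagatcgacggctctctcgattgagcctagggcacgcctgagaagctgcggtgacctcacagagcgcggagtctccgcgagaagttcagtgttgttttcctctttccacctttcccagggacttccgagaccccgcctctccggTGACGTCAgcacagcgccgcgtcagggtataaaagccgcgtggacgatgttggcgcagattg
The capitals in the Eif2ak2 window are an ISRE core that begins 18 bases downstream of the start and a relaxed ISRE overlapping it, which begins at 24 bases. The Adar window holds relaxed ISRE matches 249 bases upstream and 33 bases downstream of its start, and the windows at the other 2 annotated Adar starts held no match. The Ppp1r15a window holds an ISRE core 220 bases upstream and a CRE 12 bases upstream of the start. The motifs were chosen with the expression results known, and a match describes the letters in the window and not a site in use.

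Eif2ak2 (ENSMUSG00000024079, chromosome 17, 78852564 to 78882573, minus strand, GRCm38) encodes PKR. Its level was 245, 243 and 244 CPM in the 3 poly(I:C) libraries, 118, 118 and 116 CPM in the poly(dA:dT) libraries, and 109, 115 and 118 CPM in the mock libraries. The poly(I:C) libraries lay far above all others and within a few CPM of each other, while the poly(dA:dT) and mock libraries overlapped. The log2 fold change of poly(I:C) against mock was 1.1 ± 0.03 (SE), 2.14-fold, with an adjusted p of 1.36e-79 by edgeR's quasi-likelihood test. The poly(I:C) level was also 2.08-fold that after poly(dA:dT) (adjusted p = 5.64e-77). For poly(dA:dT) against mock the log2 fold change was 0.04 with a 95% interval from -0.02 to 0.1 and an adjusted p of 0.273, so a change above 0.1 on the log2 scale was outside the interval. Scaling by total counts alone made this difference a call at 0.11 (adjusted p = 0.000723). Of 14176 genes, Eif2ak2 ranked 1665 from the top by fold change after poly(I:C) and 6485 after poly(dA:dT).

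The other 3 eIF2α kinases were lower after poly(I:C). Eif2ak3 (ENSMUSG00000031668, chromosome 6, 70844515 to 70905245, plus strand), which encodes PERK, the kinase of the endoplasmic reticulum, fell after both mimics. It measured 19.5, 21.4 and 22 CPM after poly(I:C), 22, 24.5 and 23.7 CPM after poly(dA:dT), and 28.5, 29.3 and 29.1 CPM in mock. Every treated library lay below every mock library, and the highest poly(I:C) library reached the lowest poly(dA:dT) library to the precision printed. The fall was 0.724-fold after poly(I:C) (log2 fold change -0.47 ± 0.06, adjusted p = 5.74e-11) and 0.809-fold after poly(dA:dT) (-0.31 ± 0.06, adjusted p = 8.47e-06). The difference between the mimics was -0.16 ± 0.07 with an adjusted p of 0.0299, and it was not called when poly(I:C) replicate 1 (adjusted p = 0.184), poly(dA:dT) replicate 2 (0.133) or poly(dA:dT) replicate 3 (0.066) was left out, nor with total counts (0.11), the 50-count filter (0.0822) or DESeq2 (0.0673).

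Eif2ak1 (ENSMUSG00000029613, chromosome 5, 143817788 to 143904251, plus strand) encodes HRI, the haem-regulated kinase. Its levels were 67.4, 68.8 and 68.0 CPM after poly(I:C), 69.9, 71.4 and 74.5 CPM after poly(dA:dT), and 75.2, 72.3 and 80.8 CPM in mock. Poly(I:C) libraries were below all others, and poly(dA:dT) libraries overlapped those of mock. Eif2ak1 shares 487 of its 5670 exonic bases with Aimp2 on the opposite strand, which stood at 56.8, 52.0 and 56.2 CPM after poly(I:C), after poly(dA:dT) and in mock. Reads from that stretch cannot be told apart with this kit, and their part in the small Eif2ak1 changes was not tested. The log2 fold change was -0.16 ± 0.04 after poly(I:C) (0.897-fold, adjusted p = 0.000183) and -0.08 ± 0.04 after poly(dA:dT), which was not called (adjusted p = 0.083). That second comparison became a call when mock replicate 2 (-0.11, adjusted p = 0.0224) or poly(dA:dT) replicate 3 (-0.1, 0.0393) was left out, and with DESeq2 size factors (-0.09, 0.0291). Between the mimics the difference of -0.08 ± 0.04 was not called (adjusted p = 0.0723), although no poly(I:C) library reached a poly(dA:dT) library. The difference was called when mock replicate 3 (0.0489) or poly(dA:dT) replicate 1 (0.0377) was left out, and with no filter (-0.1, 0.0272).

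Eif2ak4 (ENSMUSG00000005102, chromosome 2, 118388618 to 118475234, plus strand) encodes GCN2, which senses uncharged transfer RNA. It stood at 26.8, 26 and 26.9 CPM after poly(I:C), 29.2, 29.7 and 33.6 CPM after poly(dA:dT), and 31.2, 30.2 and 31.0 CPM in mock. The poly(I:C) libraries formed a separate lower group, whereas poly(dA:dT) libraries lay on both sides of mock. After poly(I:C) it fell 0.861-fold (log2 fold change -0.22 ± 0.06, adjusted p = 0.000686) relative to mock, and by the same amount relative to poly(dA:dT) (adjusted p = 0.000932). The change after poly(dA:dT) was 0.0 with a 95% interval from -0.11 to 0.11 (adjusted p = 0.99).

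Set side by side per kilobase of merged exons, the kinase transcripts shifted towards Eif2ak2 after poly(I:C). Eif2ak2 made up 71.9, 71.3 and 71.3% of the 4 kinases' summed CPM per kb in the poly(I:C) libraries, 53.7, 52.7 and 51.3% in the poly(dA:dT) libraries, and 49.1, 51.0 and 49.9% in the mock libraries. The share was thus about 20 percentage points higher after poly(I:C), with no overlap, and the poly(dA:dT) libraries sat just above mock. The differences from mock were 21.5 points for poly(I:C) and 2.59 points for poly(dA:dT), each with an exact two-sided permutation p of 0.1, the smallest that 3 against 3 libraries allow. Eif2ak1 supplied 18.0% of the sum after poly(I:C), 29.1% after poly(dA:dT) and 30.0% in mock. Eif2ak3 and Eif2ak4 were the minor transcripts, at 5.21 and 5.34% after poly(I:C), 8.89 and 9.46% after poly(dA:dT), and 10.7 and 9.24% in mock. The sum of the 4 was 66.8 ± 0.201 CPM per kb after poly(I:C), 43.6 ± 0.671 after poly(dA:dT) and 44.7 ± 1.49 in mock (SD, n = 3), so the larger share of Eif2ak2 came with a larger total.

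**Figure D2:**
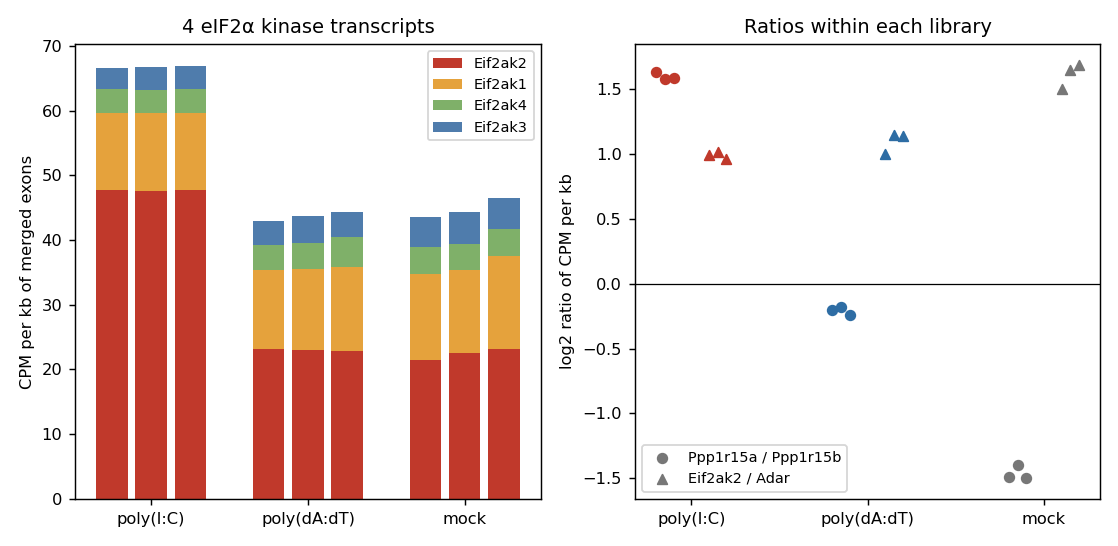
Left, CPM per kb of merged exons of the 4 eIF2α kinase transcripts stacked for each of the 9 libraries; right, log2 ratios of CPM per kb between paired members, 1 point per library. The stacks reach about 67 CPM per kb after poly(I:C) through the Eif2ak2 block, and the Ppp1r15a to Ppp1r15b ratio is above 0 only in the 3 poly(I:C) libraries.

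Prkra and Tarbp2, the PKR-binding proteins with opposite known effects on it, moved little and in the same direction. Prkra (ENSMUSG00000002731, chromosome 2, 76629898 to 76648015, minus strand) encodes PACT, and it measured 26.3, 28.1 and 26 CPM after poly(I:C), 28.7, 29.0 and 30.8 CPM after poly(dA:dT), and 30.5, 29.9 and 31.6 CPM in mock. The poly(I:C) libraries were lowest, and those of poly(dA:dT) and mock overlapped. Its fall after poly(I:C) was 0.878-fold (log2 fold change -0.19 ± 0.06, adjusted p = 0.0028). The poly(dA:dT) value of -0.05 ± 0.06 was not called (adjusted p = 0.464). Between the mimics, -0.14 ± 0.06 just passed (adjusted p = 0.0409) and was lost when poly(dA:dT) replicate 3 (0.171), poly(I:C) replicate 1 (0.114) or poly(I:C) replicate 3 (0.111) was left out, and with upper-quartile factors (0.0638), total counts (0.16), the 50-count filter (0.12) and DESeq2 (0.0829).

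Tarbp2 (ENSMUSG00000023051, chromosome 15, 102518192 to 102523676, plus strand) encodes TRBP, which also serves as a Dicer partner. Its levels were 75.2, 79.0 and 77.0 CPM after poly(I:C), 88.2, 88.7 and 89.1 CPM after poly(dA:dT), and 90.9, 90.7 and 90.0 CPM in mock. The 3 groups did not overlap, with poly(I:C) well below the other two. It fell 0.851-fold after poly(I:C) (log2 fold change -0.23 ± 0.04, adjusted p = 3.34e-09) and differed from mock by -0.03 ± 0.03 after poly(dA:dT), which was not called (adjusted p = 0.485). The log2 ratio of Prkra to Tarbp2 per kb was -0.36 ± 0.0408 after poly(I:C), -0.42 ± 0.0489 after poly(dA:dT) and -0.4 ± 0.0451 in mock (SD, n = 3), and its 3 pairwise differences lay between -0.03 and 0.06 (exact permutation p of 0.2 to 0.5). Per kb of the longest transcript the ratio itself was -0.76, -0.83 and -0.8 after poly(I:C), after poly(dA:dT) and in mock, so its level depends on the length used. The length shifts this log2 ratio equally in every library, so its differences between groups could not change.

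Scaling by total counts in place of TMM moved the median of all genes in poly(I:C) against mock to 0.15, against 0.04, and it bears on the small falls. Under it Eif2ak1 (-0.04, adjusted p = 0.329), Eif2ak4 (-0.1, 0.116) and Prkra (-0.07, 0.254) were no longer called lower, whereas Eif2ak3 and Tarbp2 were.

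Adar (ENSMUSG00000027951, chromosome 3, 89715022 to 89753446, plus strand), the adenosine deaminase of double-stranded RNA, rose after both mimics. It stood at 195, 191 and 199 CPM in the poly(I:C) libraries, 94.0, 84.0 and 83.6 CPM in the poly(dA:dT) libraries, and 61.5, 58.6 and 58.5 CPM in the mock libraries. The groups formed 3 steps without overlap, and poly(dA:dT) replicate 1 was the highest of its group. The rise was 3.27-fold after poly(I:C) (log2 fold change 1.71 ± 0.03, adjusted p = 6.59e-91) and 1.46-fold after poly(dA:dT) (0.55 ± 0.04, adjusted p = 1.05e-28), with a 2.24-fold difference between the mimics (1.16 ± 0.03, adjusted p = 1.69e-71). Counts per gene do not separate the Adar isoforms or start sites. Adar shares 1365 exonic bases with Chrnb2 on the opposite strand, which had 1.58, 0.816 and 0.277 CPM after poly(I:C), after poly(dA:dT) and in mock. The library kit does not mark strand, so reads from the shared stretch cannot be told apart.

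Eif2ak2 and Adar are both known as interferon-induced genes, and after poly(dA:dT) Adar was called and Eif2ak2 was not. Their ratio within each library compares them directly. Per kb, the log2 ratio of Eif2ak2 to Adar was 0.99, 1.02 and 0.96 in the poly(I:C) libraries, 1.0, 1.15 and 1.14 in the poly(dA:dT) libraries, and 1.5, 1.65 and 1.69 in the mock libraries. Both treated groups lay below every mock library and overlapped each other. The ratio was lower than in mock by 0.62 after poly(I:C) and by 0.51 after poly(dA:dT) (differences of -0.62 and -0.51, exact permutation p of 0.1 each, the smallest possible), and the mimics differed by -0.11 (p = 0.2).

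Ppp1r15a (ENSMUSG00000040435, chromosome 7, 45522916 to 45526268, minus strand) encodes GADD34, the stress-inducible regulatory subunit that returns eIF2α to its unphosphorylated form. It had the largest change of the 9 members in all 3 comparisons. Its level was 334, 326 and 322 CPM after poly(I:C), 84.4, 87.1 and 83.8 CPM after poly(dA:dT), and 32.7, 34.9 and 34.5 CPM in mock. The libraries of a group lay within a few per cent of each other and the groups were far apart. The rise was 9.63-fold after poly(I:C) (log2 fold change 3.27 ± 0.03, adjusted p = 3.16e-138), 2.51-fold after poly(dA:dT) (1.32 ± 0.04, adjusted p = 3.1e-71) and 3.85-fold between poly(I:C) and poly(dA:dT) (1.94 ± 0.03, adjusted p = 2.93e-113). Among all 14176 genes it ranked 349 from the top after poly(I:C) and 438 after poly(dA:dT), and Adar ranked 912 and 1523.

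Ppp1r15b (ENSMUSG00000046062, chromosome 1, 133131143 to 133139783, plus strand) encodes CReP, the constitutive counterpart of GADD34. It measured 206, 208 and 204 CPM after poly(I:C), 184, 188 and 188 CPM after poly(dA:dT), and 175, 176 and 186 CPM in mock. Poly(I:C) libraries were highest, and mock replicate 3 lay within the range of the poly(dA:dT) libraries. The rise was 1.15-fold after poly(I:C) (log2 fold change 0.21 ± 0.03, adjusted p = 3.81e-12). After poly(dA:dT) it was 1.04-fold (0.06 ± 0.03, adjusted p = 0.0379). That call was lost with DESeq2 (0.222), with DESeq2 size factors (0.151), with no filter (0.0948) and with a replicate block (0.053). It was also lost when any of 4 libraries was left out, namely mock replicate 1 (0.227), mock replicate 2 (0.161), poly(dA:dT) replicate 2 (0.11) and poly(dA:dT) replicate 3 (0.115).

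The balance of the transcripts of these phosphatase subunits therefore turned over between groups, and protein levels were not measured here. The log2 ratio of Ppp1r15a to Ppp1r15b per kb was 1.63, 1.58 and 1.59 in the poly(I:C) libraries, -0.2, -0.18 and -0.24 in the poly(dA:dT) libraries, and -1.49, -1.4 and -1.5 in the mock libraries. Ppp1r15b was the more abundant transcript in mock, the transcripts were close after poly(dA:dT), and Ppp1r15a exceeded Ppp1r15b after poly(I:C). The differences from mock were 3.06 for poly(I:C) and 1.26 for poly(dA:dT) on the log2 scale (exact permutation p of 0.1 each, the smallest possible).

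**Figure D3:**
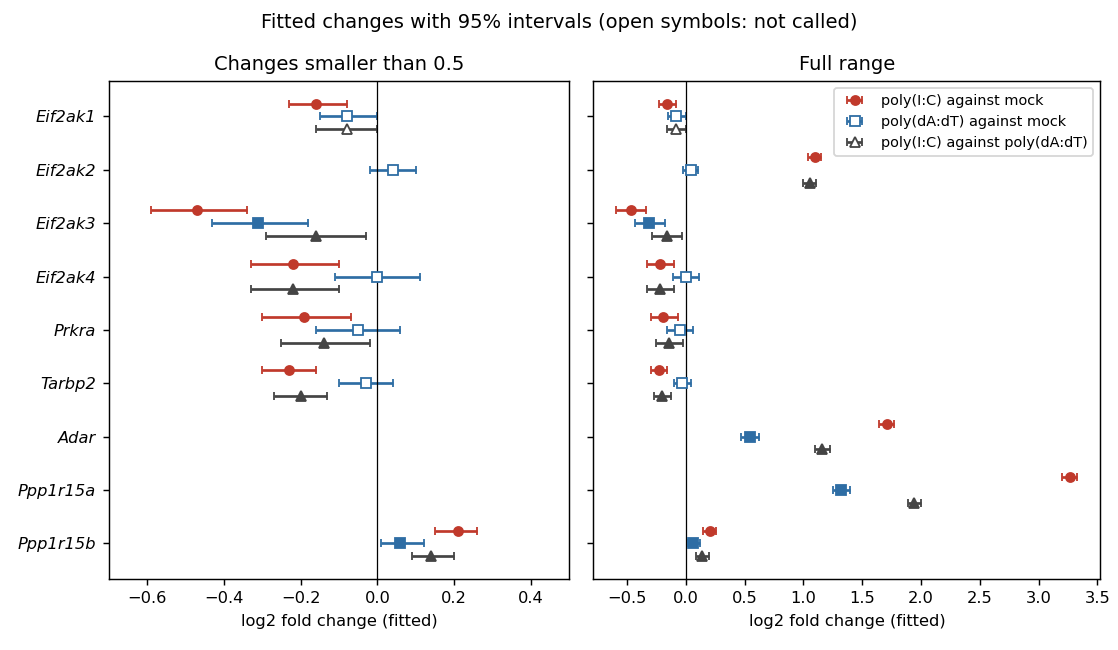
Fitted log2 fold changes (horizontal axes) with 95% intervals for the 9 members in the 3 comparisons, filled where called and open where not; the left panel shows the changes smaller than 0.5. Ppp1r15a, Adar and Eif2ak2 reached 3.27, 1.71 and 1.1 for poly(I:C) against mock, and the 3 other kinases, Prkra and Tarbp2 lie at or left of 0 in all 3 comparisons.

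The order of the members by level per kb of merged exons changed with treatment. In poly(I:C) libraries it was Ppp1r15a, Eif2ak2, Ppp1r15b, Adar, Tarbp2, Prkra, Eif2ak1, Eif2ak4 and Eif2ak3, with means from 111 down to 3.48 CPM per kb. After poly(dA:dT) it was Ppp1r15b, Ppp1r15a, Eif2ak2, Tarbp2, Prkra, Eif2ak1, Adar, Eif2ak4 and Eif2ak3, from 33.4 down to 3.88 CPM per kb. In mock it was Ppp1r15b, Eif2ak2, Tarbp2, Prkra, Eif2ak1, Ppp1r15a, Adar, Eif2ak3 and Eif2ak4, from 32 down to 4.13 CPM per kb. Among neighbours in these orders, the libraries of Eif2ak4 and Eif2ak3 overlapped after both mimics, and no other neighbouring pair did. Part of this order depends on the length used. Per kb of the longest transcript, a length tried after seeing the data, Tarbp2 came first in mock at 33.1 CPM per kb, overlapping Ppp1r15b at 32 CPM per kb, and second after poly(dA:dT) at 32.5. With that length Prkra and Eif2ak1 also overlapped in mock, Eif2ak4 and Eif2ak3 overlapped after neither mimic, and the poly(I:C) order was the same. By merged exons, Ppp1r15a stood higher per kb than 97.7% of tested genes after poly(I:C), 85.4% after poly(dA:dT) and 65.7% in mock, and Eif2ak2 higher than 92.6, 81.3 and 80.5% of them. The corresponding percentages for Adar were 82.5, 63.7 and 55.2%.

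Among 11627 genes compared over the 9 libraries, those whose centred log2 CPM came nearest to a member's were found by the root-mean-square difference. For Eif2ak2 they were Mfhas1 (0.0369), Rab8b (0.0407) and Myo10 (0.0535). Mfhas1 had 93.3 ± 3.0 CPM after poly(I:C), 44.9 ± 1.29 after poly(dA:dT) and 43.5 ± 1.97 in mock (SD, n = 3). By edgeR's quasi-likelihood test it was not called in poly(dA:dT) against mock (0.05, adjusted p = 0.391). Rab8b (0.08, adjusted p = 0.0305) and Myo10 (0.12, adjusted p = 6.84e-05) were called higher there. A shared profile follows from how these genes were picked. For Adar they were Relt (0.0666), C3 (0.0684) and Zbtb7c (0.0713). C3, complement component 3, had 360 ± 3.69 CPM after poly(I:C), 161 ± 0.706 after poly(dA:dT) and 118 ± 3.79 in mock. For Ppp1r15a they were Irf1 (0.0463), Hist1h1c (0.09) and Rnd1 (0.0974). Irf1, an interferon-regulatory transcription factor, had 678 ± 3.24 CPM after poly(I:C), 182 ± 0.516 after poly(dA:dT) and 73.2 ± 3.44 in mock.

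Genes of the same pathway were counted in 6 lists, against the same backgrounds of 76.1% called after poly(I:C) and 52.8% after poly(dA:dT). By direction, 39.8% of genes were called higher and 36.3% lower after poly(I:C), and 26.6% and 26.2% after poly(dA:dT). Eif2s1, the gene of eIF2α itself, had 145 ± 4.46 CPM after poly(I:C), 149 ± 2.13 after poly(dA:dT) and 155 ± 3.67 in mock (SD, n = 3; named after its values were seen). It was called lower after poly(I:C), at -0.1 ± 0.03 (adjusted p = 0.0017). With total-count scaling that value turned to 0.02 and was not called (adjusted p = 0.593), nor was it called with the 50-count filter (-0.05, 0.0848). After poly(dA:dT) Eif2s1 was not called (-0.06, adjusted p = 0.0845). It was called lower there with DESeq2 size factors (-0.08, 0.0201) and with DESeq2 (-0.08, 0.0433). Of 13 genes for eIF2, its exchange factor eIF2B and related factors, 2 rose and 6 fell after poly(I:C), and 1 rose and 2 fell after poly(dA:dT). Eif2s3x, the X-linked gene of the γ subunit, fell by 0.46 on the log2 scale after poly(I:C) to 333 ± 3.66 CPM, with 400 ± 4.91 CPM after poly(dA:dT) and 460 ± 11.8 CPM in mock, and Mcts1, a translation re-initiation factor gene, fell by 0.29 after poly(I:C). Eif2d (0.33) and Eif2b3 (0.19) rose after poly(I:C). With total-count scaling 7 of the 13 rose in each comparison with mock, and 2 and 1 fell after poly(I:C) and poly(dA:dT), so the direction of this list depends on scaling. With the 50-count filter 3 fell after poly(I:C). After poly(dA:dT) 5 fell with DESeq2 size factors, and 1 with upper-quartile factors, with no filter and with the 50-count filter. Leaving out mock replicate 2, poly(dA:dT) replicate 1 or poly(dA:dT) replicate 2 also left 1 fall there.

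Genes listed as partners of the kinases and of the phosphatase, some of them indirect, mostly fell. Of 14, 4 rose and 9 fell after poly(I:C), with a median log2 fold change of -0.44, and 3 rose and 9 fell after poly(dA:dT), with a median of -0.16. Dnajc3, whose product inhibits PKR and PERK, had 54.2, 52.4 and 54.6 CPM after poly(I:C), 77.4, 78.9 and 74.5 CPM after poly(dA:dT), and 95.7, 93.6 and 99.7 CPM in mock. The groups did not overlap, with log2 fold changes of -0.84 ± 0.04 after poly(I:C) and -0.32 ± 0.04 after poly(dA:dT) (adjusted p of 1.78e-47 and 1.53e-14). Hspa5, the chaperone that holds PERK inactive, averaged 608 ± 9.33 CPM after poly(I:C), 937 ± 5.6 after poly(dA:dT) and 1048 ± 7.67 in mock. The genes of the catalytic subunits of protein phosphatase 1, Ppp1ca, Ppp1cb and Ppp1cc, which were named after their values were seen, fell by 0.52, 0.44 and 0.45 after poly(I:C) and by 0.25, 0.19 and 0.23 after poly(dA:dT), while their regulatory partner Ppp1r15a rose. Dus2, whose human product binds and inhibits PKR, rose by 0.85 after poly(I:C) and 0.47 after poly(dA:dT), and Oma1, the mitochondrial protease that acts upstream of HRI, by 0.82 and 0.45.

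Among 14 other double-stranded RNA binding and editing genes, 7 rose and 4 fell after poly(I:C), 5 rose and 3 fell after poly(dA:dT), and the medians were 0.03 and 0.06. With total-count scaling 9 rose after poly(dA:dT) and 2 fell after poly(I:C). Dicer1, the microRNA-processing nuclease that TRBP assists, fell by 0.64 after poly(I:C), and Ilf2 fell by 0.57. Adarb1, the second catalytically active deaminase (named after its values were seen), had 44.5 ± 2.11 CPM after poly(I:C), 46.9 ± 3.32 after poly(dA:dT) and 44.8 ± 1.53 in mock. None of the 3 comparisons called it. Against mock, the 95% intervals ran from -0.11 to 0.08 for poly(I:C) and from -0.03 to 0.15 for poly(dA:dT).

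Most other sensors of double-stranded or Z-form nucleic acid rose, and those that did changed by more than Eif2ak2. Of 15 tested, 12 rose after poly(I:C), with a median of 5.84 on the log2 scale, where Eif2ak2 had 1.1. After poly(dA:dT), 5 of the 15 (Oas1a, Oas1g, Oas2, Oas3 and Zbp1) passed the low-count filter only through the poly(I:C) libraries. Of the other 10, 7 rose after poly(dA:dT), with a median of 1.84, where Eif2ak2 had 0.04, and with all 15 the count was 12 and the median 2.56. The adaptors Mavs and Ticam1 were among those without a call in the comparisons with mock. Mavs was called lower after poly(I:C) than after poly(dA:dT) (-0.14, adjusted p = 0.00247 by edgeR's quasi-likelihood test). With DESeq2 size factors, no filter or only the groups compared, 1 gene of the list was called lower in poly(I:C) against mock. The same count was found when poly(I:C) replicate 1 was left out. Oasl1 had 222 ± 2.68 CPM after poly(I:C), 10.1 ± 1.22 after poly(dA:dT) and 0.101 ± 0.0918 in mock, and Oas1b had 164 ± 1.71, 20.6 ± 0.714 and 0.467 ± 0.138 CPM in the same order. Oas2 had 271 counts after poly(I:C), 24 after poly(dA:dT) and 0 in mock, which made poly(I:C) at least 106-fold higher and poly(dA:dT) at least 8.45-fold higher, with 3 counts over the mock group taken as the limit. With Oas2 at that bound the list medians remained 5.84 and 2.56. Oas1g had 248 counts after poly(I:C), 17 after poly(dA:dT) and 1 in mock, and near-identical Oas1 copies can share reads.

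**Figure D4:**
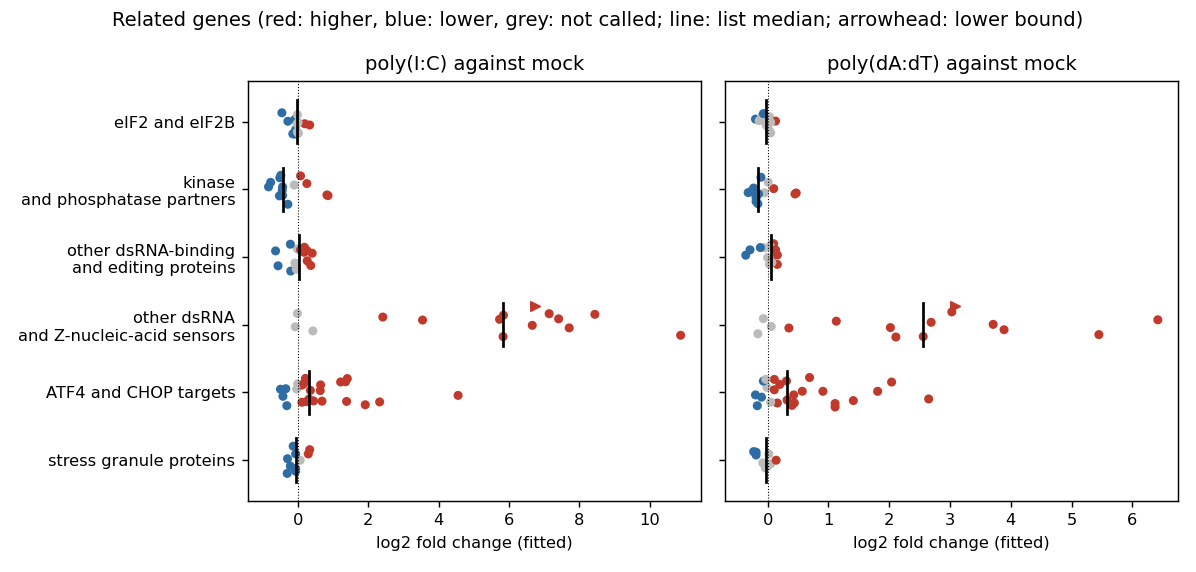
Fitted log2 fold changes (horizontal axes) of the genes in the 6 lists for poly(I:C) against mock, left, and poly(dA:dT) against mock, right; points are genes, black lines list medians, and arrowheads the lower bound for Oas2. The 15 sensors have medians of 5.84 and 2.56 (1.84 over the 10 that pass the low-count filter without the poly(I:C) libraries), whereas the partner list lies mostly left of 0.

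Targets of ATF4 and CHOP, which lie downstream of phosphorylated eIF2α, mostly rose after both mimics. Of 25 genes, 19 rose and 4 fell after poly(I:C), 18 rose and 4 fell after poly(dA:dT), and the medians were 0.31 and 0.32. With total-count scaling 2 fell after poly(dA:dT). Between poly(I:C) and poly(dA:dT) 10 were higher and 9 lower, where 31.3% of all genes tested were called higher and 32.1% lower. The list's median was 0.0, in contrast to the 3.85-fold difference of Ppp1r15a. Atf3 rose most, with 275, 271 and 269 CPM after poly(I:C), 73.6, 71.1 and 72.8 CPM after poly(dA:dT), and 11.8, 11.3 and 11.6 CPM in mock. Its log2 fold change was 4.55 after poly(I:C) and 2.65 after poly(dA:dT), the order of groups that Ppp1r15a also had. Chac1 had 97.6 ± 1.21 CPM after poly(I:C), 68.6 ± 2.67 after poly(dA:dT) and 19.8 ± 2.46 in mock, and Slc3a2 had 767 ± 5.72, 548 ± 13.6 and 291 ± 7.09 CPM in the same order. Stc2 rose by 1.91 after poly(I:C) from a low level, at 1.51 ± 0.382 CPM after poly(I:C) and 0.351 ± 0.341 in mock.

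Several targets, named after their values were seen, did not share that order. Trib3, a pseudokinase gene, had 71.2 ± 1.02 CPM after poly(I:C), 72.6 ± 1.65 after poly(dA:dT) and 27.2 ± 1.37 in mock, and Atf4 itself rose by 0.31 after poly(I:C) and 0.32 after poly(dA:dT). Ddit4 fell by 0.43 after poly(I:C), at 62.3 ± 1.34 CPM against 84.0 ± 2.64 in mock, and rose by 0.57 after poly(dA:dT), at 125 ± 5.53 CPM. The serine synthesis genes Phgdh and Psat1 fell after both mimics, by 0.5 and 0.35 after poly(I:C) and by 0.17 and 0.07 after poly(dA:dT). Small falls of targets after poly(dA:dT) depended on scaling, with 4 called under TMM and 2 under total counts. Of 10 stress granule genes, 2 rose and 7 fell after poly(I:C) and 1 rose and 3 fell after poly(dA:dT), with Tial1 (0.33), Fmr1 (-0.31), Pabpc1 (-0.3) and Atxn2 (0.29) the most changed after poly(I:C). These counts depend on the processing. After poly(I:C), 4 fell with upper-quartile scaling or the 50-count filter, and 3 fell and 4 rose with total counts. After poly(dA:dT), 4 rose with total counts, 2 rose with upper-quartile scaling or the 50-count filter, and 5 fell with DESeq2 size factors.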

How the data were processed

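RNA was sequenced from 9 libraries, 3 each after poly(I:C), after poly(dA:dT) and after mock transfection. The authors deposited raw read counts per Ensembl gene, used here as deposited. The submitters' processing notes name TopHat2 2.1.0, HTSeq, DESeq2 and GRCm38.p4, while the annotation release and the strand setting of counting were not given in the sources used. A TruSeq RNA kit made the libraries, per the labels' protocols. Symbols and positions came from GENCODE M21, which held 46091 of the 46603 identifiers. The members and lists were chosen with earlier results of these data known.

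Differences were tested by edgeR 4.0.16 under R 4.3.3 (quasi-likelihood test, robust, two-sided, TMM, filterByExpr by group, 1 fit of all 9 libraries, Benjamini-Hochberg adjustment over 14176 genes, threshold 0.05). The SE was taken as the size of the log2 fold change over the root of F, and the prior count was 0.125. Levels between genes are per kb of merged exons. Ratios were compared by exact permutation tests in SciPy 1.17.1. The test was checked on simulated data. Replicate pairs differed by a chi-square per degree of freedom of 1.64 to 2.14, above sampling noise, so each library counted once. The labels name no batch and do not say that replicates were separate cultures, and p-values therefore reflect the spread between these libraries alone, possibly a technical one. Counting limits (3 counts for a count of 0) cover counting error only. Other genes are named by rule, namely up to 4 called members per list with the largest change after poly(I:C) and the 3 genes nearest to Eif2ak2, Adar and Ppp1r15a, with exceptions marked. Some items are not reported here. Alternatives were other scalings, filters of none and of 50 counts in 3 libraries, a fit of only the groups compared, a replicate block, DESeq2 1.42.0, each library left out, and for ratios and the order of levels the longest transcript's length.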

Additional observations from a re-analysis of the deposited data

How the results depend on the processing

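The direction of every called member change was kept in all alternatives run, and the calls of Eif2ak2, Adar and Ppp1r15a after poly(I:C), of Adar and Ppp1r15a after poly(dA:dT), and of all 3 between the mimics were kept as well. Over the alternatives, the log2 fold change after poly(I:C) ranged from 1.06 to 1.21 for Eif2ak2, from 1.68 to 1.82 for Adar and from 3.23 to 3.38 for Ppp1r15a. Members called lower after poly(I:C) numbered 5, and 2 with total-count scaling. Members called lower after poly(dA:dT) numbered 1, and 2 with DESeq2 size factors; with 1 library left out the range was 1 to 2, reaching 2 when mock replicate 2 or poly(dA:dT) replicate 3 was left out. Between poly(I:C) and poly(dA:dT) 4 were called lower, and 2 with total-count scaling, with the 50-count filter and with DESeq2; with 1 library left out the range was 2 to 5, falling to 2 when poly(dA:dT) replicate 3 or poly(I:C) replicate 1 was left out. Genes called lower after poly(dA:dT) numbered 3721, and 2389 with total-count scaling, where 67.7% of calls were higher, against 50.3%. TMM factors were 1.034 to 1.038 after poly(I:C), 1.007 to 1.009 after poly(dA:dT) and 0.9564 to 0.9589 in mock. Total-count scaling leaves these factors out. What made the factors differ between groups was not tested, nor was the cause of the other shifts. Over all genes tested, deviations of same-numbered replicates had correlations between -0.0138 and 0.0225, which gave no sign of pairing. A pairing that touches few genes could be missed by that check. With a replicate block, 3723 genes were higher and 3661 lower after poly(dA:dT), against 3769 and 3721. Among the members the block ended only the Ppp1r15b call after poly(dA:dT) (adjusted p = 0.053). Depth did not limit the members, which held at least 366 counts per library.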
